A study of Canis lupus familiaris with 32 samples.

Results

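Heat shock proteins and their co-chaperones were followed in the skin of atopic dogs after contact with house dust mite. The set holds 72 of the 17107 genes in the authors' deposited gene table, taken by symbol: the Hsp70 (HSPA), Hsp110 (HSPH), Hsp90, chaperonin (HSPD), small heat shock protein (HSPB and CRYAB), J-domain (DNAJA, DNAJB, DNAJC) and BAG families. The deposited array values carry no gene names, and 38 of the 72 could be tied to a probe set because its folds and p-values equalled those of the gene in that table. Values for single dogs exist for these 38, called linked members below. The other 34 have only the authors' fold and adjusted p at each time.

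The animals were 8 Maltese-beagle atopic dogs, 5 males and 3 females aged 5.5 to 10.5 years. All had been sensitized through the skin to the mite Dermatophagoides farinae and had been chosen because a mite challenge gave them acute lesions, so no healthy dog is in the comparison. Each dog gave 4 biopsies of lateral thoracic skin, 1 per array. The control was taken on the control side at 6 h, where the labels' protocol names mineral oil, and the others were taken after a mite patch, at 6 h, 24 h and 48 h. Because there is no control at 24 h or 48 h, mite exposure and time since patching cannot be told apart in those comparisons.

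Hsp70 proteins bind unfolded stretches of other proteins in a cycle driven by ATP. J-domain proteins deliver clients and start ATP hydrolysis, while Hsp110 and BAG proteins release the nucleotide so that the client can leave. Hsp90 acts later, on partly folded clients such as kinases and steroid receptors, and small heat shock proteins hold unfolding proteins without ATP. The endoplasmic reticulum and mitochondria have chaperones of their own, and in epidermis HSPB1 is known to be made as keratinocytes differentiate, without heat.

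Biopsies differed in muscle content and in an RNA measure, and fits that take account of each are given below. The mean log2 signal of 8 linked skeletal muscle markers split the 32 arrays into 9 rich in muscle, at 8.34 to 9.83, and 23 others, at 3.40 to 6.29. Of the 9, 5 were mite arrays at 6 h, 2 were mite arrays at 24 h, none were mite arrays at 48 h and 2 were control arrays. The muscle mean was lower at 48 h than in control skin in 8 of 8 dogs, by a mean of -2.24 (exact permutation over sign changes within dogs, 2-sided, adjusted p = 0.0234 over 6 tests). Its differences from control did not pass at 6 h (1.51, higher in 5 of 8 dogs) or 24 h (-0.93, higher in 1 of 8). For each of these the same exact permutation test gave an adjusted p of 0.3516. The beta-actin 3' minus 5' difference, which is wider in more degraded RNA, differed from control by 0.50 at 6 h and was the higher in 7 of 8 dogs (same exact permutation test, adjusted p = 0.0469). At 48 h it was lower in 8 of 8 dogs (-0.48, exact permutation, adjusted p = 0.0234), and at 24 h it did not pass (-0.20, exact permutation, adjusted p = 0.3516). The median log2 signal of an array was 4.635 to 4.901, the lowest being the 24 h array of dog 5. With 8 arrays a group, precision is limited by their number.

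At 6 h, 5 of the 38 linked members were lower in mite skin than in control skin and 1 was higher, that is 13.2% and 2.63% of them, where 4.08% and 0.323% of all 10512 linked genes fell and rose. The 5 were HSPH1, DNAJC21, HSPA8, HSP90AB1 and HSP90AA1. A call is an adjusted p under 0.05 in limma with the dog as a block, adjusted over all 42860 probe sets tested. The median difference of the linked members was -0.08, against 0.00 for all linked genes, and 28 of the 38 were below 0. Markers of keratinocytes, the main cells of the epidermis, lay the same way. All 5 linked ones were below 0 (median -0.37), DSG3 passed in limma (-0.53, adjusted p = 0.0317) and 3 had p under 0.05 before adjustment. Their mean was 7.65 to 9.40 in mite skin at 6 h, against 8.80 to 9.61 in control skin, and its part in the falls of the members was not tested.

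HSPA8, the constitutive Hsp70 of the cytosol, gave log2 signals of 11.08 to 11.70 (median 11.42) in mite skin at 6 h, against 11.42 to 12.24 (median 11.95) in control skin. It fell by 0.47 (SE 0.10, limma adjusted p = 0.00914), and was lower in 8 of 8 dogs although the ranges of the groups overlap. At 24 h it read 11.64 to 12.32 (median 12.03) and at 48 h 11.82 to 12.29 (median 12.09), and neither later time passed the test against control (0.15, adjusted p = 0.404, and 0.20, adjusted p = 0.17). Between the mite groups themselves it rose by 0.62 at 24 h over 6 h (adjusted p = 0.000168) and by 0.67 at 48 h over 6 h (adjusted p = 1.28e-05), each in 8 of 8 dogs. The 48 h and 6 h ranges do not overlap. A gene picked as low on the 6 h mite arrays tends to look higher in tests that use those same arrays.

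The cytosolic Hsp90 pair was also lower at 6 h. HSP90AA1, the stress-inducible alpha form, read 11.85 to 12.23 (median 11.96) in mite skin at 6 h, against 11.99 to 12.51 (median 12.39) in control skin, a fall of 0.33 (SE 0.09, limma adjusted p = 0.0377, 8 of 8 dogs). HSP90AB1, the constitutive beta form, read 9.03 to 9.88 (median 9.43) in mite skin at 6 h, against 9.50 to 10.09 (median 9.80) in control skin. It fell by 0.38 (SE 0.10, adjusted p = 0.0365, 7 of 8 dogs). Within mite skin the beta form was higher by 0.54 at 24 h over 6 h (adjusted p = 0.000614) and by 0.59 at 48 h over 6 h (adjusted p = 6.86e-05), in 8 of 8 dogs each time. For the alpha form the same differences were 0.17 (adjusted p = 0.186) and 0.19 (adjusted p = 0.117), and whether the 2 forms differ from each other was not tested. Against control the beta form did not pass in limma at 24 h (0.16, adjusted p = 0.37) or 48 h (0.21, adjusted p = 0.141). Its higher later values rest on the same 6 h mite arrays on which it was picked as low.

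HSPH1, the Hsp110 that serves as a nucleotide exchange factor for Hsp70, had the largest fall among linked members at 6 h and was lower at every time. Its signal was 5.62 to 6.60 (median 6.48) in control skin, 4.35 to 6.20 (median 5.38) at 6 h, 5.10 to 6.14 (median 5.61) at 24 h and 4.75 to 6.26 (median 5.37) at 48 h. The differences from control were -1.03 (SE 0.20, limma adjusted p = 0.00596), -0.73 (adjusted p = 0.0202) and -0.89 (adjusted p = 0.00177), each in 8 of 8 dogs. These 3 comparisons share the control arrays. Between 48 h and 6 h the difference was 0.14 (95% confidence interval -0.27 to 0.54, adjusted p = 0.65).

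DNAJC21, a J-domain protein of ribosome assembly, was likewise lower at all 3 times. It read 5.69 to 6.34 (median 6.14) in control skin, 4.84 to 5.88 (median 5.41) at 6 h, 4.97 to 6.24 (median 5.67) at 24 h and 5.16 to 6.09 (median 5.61) at 48 h. The falls were 0.66 (SE 0.11, limma adjusted p = 0.00245, 8 of 8 dogs), 0.49 (adjusted p = 0.00637, 7 of 8 dogs) and 0.51 (adjusted p = 0.00147, 8 of 8 dogs). The groups overlap at each time.

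The single rise at 6 h was HSPB11, a member of intraflagellar transport that carries a heat shock name. It read 5.78 to 6.19 (median 6.00) in mite skin at 6 h, against 5.28 to 6.08 (median 5.59) in control skin, a rise of 0.37 (SE 0.10, limma adjusted p = 0.0308, 7 of 8 dogs). At 24 h it was 0.38 lower than at 6 h (adjusted p = 0.00793, 8 of 8 dogs), with no overlap between these groups.

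**Figure D1:**
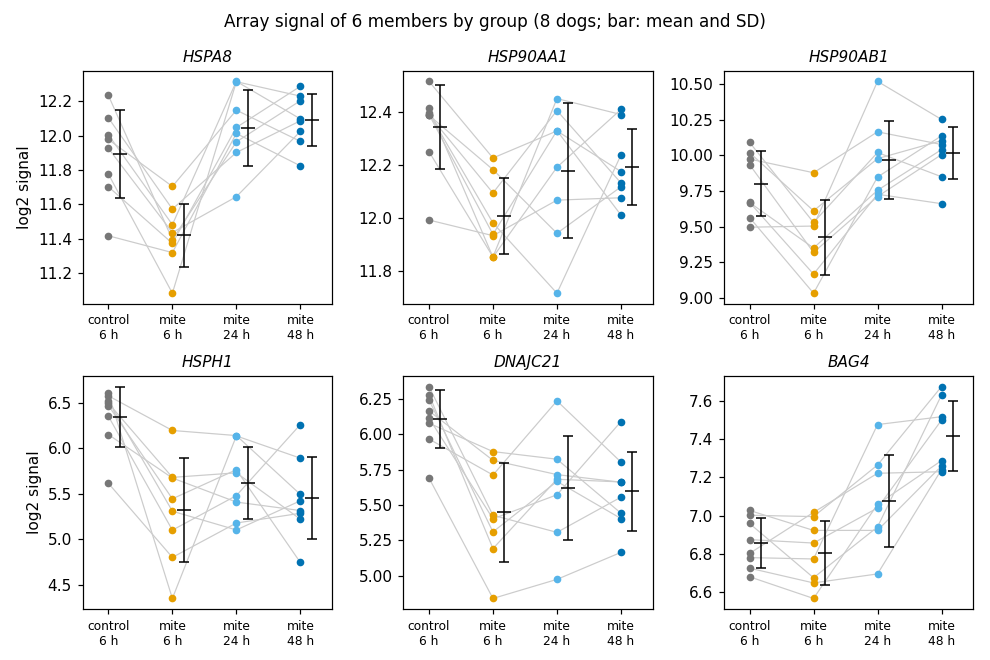
Log2 signal of 6 linked members in control skin at 6 h and in mite skin at 6 h, 24 h and 48 h; points are arrays, grey lines join the 4 arrays of a dog, and the black bar is the mean with its SD over 8 dogs. HSPA8 and HSP90AB1 are low at 6 h and lie within or above the control range later, the means of HSPH1 and DNAJC21 are below the control mean at each time, and BAG4 at 48 h lies above every control array.

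The 6 calls at 6 h depend on how muscle and RNA quality are handled. When the 9 muscle-rich arrays were left out, none of the linked members passed in limma, and 6 had p under 0.05 before adjustment. That fit keeps 3 mite and 6 control arrays, with both in 1 dog only. With the actin difference as a covariate none passed in limma either, and 9 had p under 0.05 before adjustment. HSPA8 was at -0.45 in both fits (adjusted p = 1.0 and 0.313). HSPH1 was at -0.98 without the muscle-rich arrays and at -0.66 with the actin covariate (adjusted p = 0.907 and 0.39), and HSP90AB1 at -0.12 and -0.14. With the muscle mean as a covariate 3 passed, HSPH1 (-0.997, adjusted p = 0.0143), DNAJC21 (-0.64, adjusted p = 0.00747) and HSPA8 (-0.46, adjusted p = 0.0237). HSP90AB1 (-0.35, adjusted p = 0.0934), HSP90AA1 (-0.30, adjusted p = 0.102) and HSPB11 (0.38, adjusted p = 0.0604) did not. Without the dog as a block the same 3 passed, and leaving out 1 dog at a time gave 2 to 6, the lowest without dog 1. HSPH1 and DNAJC21 passed in all 8 of those fits and HSPA8 in all but that without dog 1. HSP90AB1 passed only without dog 5, HSP90AA1 only without dog 4 or 5, and HSPB11 only without dog 5 or 7. The share of all linked genes called in these alternative fits is not given. The lower counts therefore cannot be told from a loss of calls over all genes.

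At 24 h few members differed from control skin. Of the 38 linked members 3 fell and 0 rose in limma (12 had p under 0.05 before adjustment), or 7.89% and 0.0%, where 7.22% and 3.63% of all linked genes fell and rose. The share of falls is thus near that of all linked genes. Beside HSPH1 and DNAJC21 the third was DNAJC7, a J-domain protein that binds both Hsp70 and Hsp90. It read 8.07 to 8.93 (median 8.53) in mite skin at 24 h, against 8.62 to 9.12 (median 8.81) in control skin, a fall of 0.33 (SE 0.10, limma adjusted p = 0.0394, 8 of 8 dogs). Its call ended without the 24 h array of dog 5 (-0.27, adjusted p = 0.0925) and with each of dogs 3 to 8 left out in turn. It ended too in limma without the dog as a block (adjusted p = 0.0815). HSPH1 lost its call at 24 h when dog 7 or dog 8 was left out.

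More linked members differed between 24 h and 6 h within mite skin. Here 7 linked members rose and 3 fell, or 18.4% and 7.89%, where 8.43% and 8.17% of all linked genes rose and fell. Beside HSPA8, HSP90AB1 and BAG4, the rises were DNAJA1 and 3 J-domain proteins of the endoplasmic reticulum, DNAJB11, DNAJB9 and DNAJC1. BAG4 and DNAJC1 were named here after their values were seen. The falls were HSPB2, HSPB11 and HSPB6, all of the small heat shock protein list. This comparison shares the 6 h mite arrays with that of 6 h against control. HSPA8 and HSP90AB1, picked as low on those arrays, tend to look higher in it, and HSPB11, picked as high, tends to look lower. No call among linked members was left in limma once the muscle-rich arrays were dropped (7 had p under 0.05 before adjustment) or with the actin covariate (6 had p under 0.05 before adjustment). How many of all linked genes kept a call in those fits is not given, so the loss is not particular to the members. Without the muscle-rich arrays HSPA8 was still 0.50 higher (adjusted p = 0.242), from 6 arrays at 24 h and 3 at 6 h. With the muscle mean as a covariate 5 rises and 2 falls passed, among them HSPA8 (0.60, adjusted p = 0.00176), HSP90AB1 (0.50, adjusted p = 0.00642) and HSPB2 (-0.41, adjusted p = 0.019). With 1 dog left out, BAG4 lost its call without dog 3 or 6, DNAJA1 without dog 3 and HSPB6 without dog 3, 5, 6 or 7.

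Markers of other cells moved between 24 h and 6 h as well, and their part in the members' differences was not tested. Of 4 linked markers each, 3 of macrophages and 1 of T cells rose and 4 of adipocytes fell in limma. All 5 keratinocyte markers were above 0 (median 0.34), and 0 passed in limma while 2 had p under 0.05 before adjustment. Their mean was 8.40 to 9.55 at 24 h, against 7.65 to 9.40 at 6 h.

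DNAJB11, a co-chaperone of the Hsp70 of the endoplasmic reticulum, was among these rises. It read 9.22 to 9.66 (median 9.50) in control skin, 9.08 to 9.37 (median 9.24) at 6 h, 9.50 to 10.07 (median 9.70) at 24 h and 9.45 to 10.13 (median 9.74) at 48 h. All 24 h arrays, and all 48 h arrays, lay above all 6 h arrays. The rises over 6 h were 0.49 at 24 h (SE 0.09, limma adjusted p = 0.000673) and 0.51 at 48 h (adjusted p = 0.00014), each in 8 of 8 dogs. Against control it was at -0.23 at 6 h (adjusted p = 0.178), 0.26 at 24 h (adjusted p = 0.0816) and 0.27 at 48 h (adjusted p = 0.0329, 6 of 8 dogs), the last named after its value was seen. That last call ended with the muscle covariate (0.23, adjusted p = 0.128), without the muscle-rich arrays, with the actin covariate and with each of dogs 1, 3, 4, 5, 7 and 8 left out in turn.

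DNAJB9, which assists the degradation of misfolded proteins in the endoplasmic reticulum, had the same order of group means. It read 7.01 to 7.68 (median 7.31) in control skin, 6.92 to 7.18 (median 7.10) at 6 h, 6.96 to 7.68 (median 7.50) at 24 h and 7.24 to 7.75 (median 7.52) at 48 h. It rose by 0.39 at 24 h over 6 h (limma adjusted p = 0.0023, 7 of 8 dogs) and by 0.48 at 48 h over 6 h (adjusted p = 0.000105, 8 of 8 dogs, no overlap), the 48 h value being named after it was seen. No comparison with control passed (adjusted p of 0.091, 0.4 and 0.0656). DNAJC1, a membrane J-domain protein of the same compartment, rose by 0.37 at 24 h over 6 h (adjusted p = 0.00784, 7 of 8 dogs). Its signals, 3.29 to 4.36 over all arrays, lie below the array medians, where the size of a difference is uncertain. DNAJA1, a cytosolic partner of HSPA8, rose by 0.29 at 24 h over 6 h (adjusted p = 0.0166, 8 of 8 dogs) and differed from control by -0.21 at 6 h (adjusted p = 0.191).

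At 48 h the linked members moved both ways. Of 38, 6 fell and 3 rose, or 15.8% and 7.89%, where 10.9% and 12.2% of all linked genes fell and rose. The falls were CRYAB, HSPH1, HSPA2, DNAJC21, BAG2 and DNAJC7, and the rises BAG4, DNAJB11 and DNAJC8. The median difference was -0.09, against -0.02 for all linked genes. Shares this close to those of all linked genes do not set the members apart. A bulk biopsy does not separate fewer cells of a type from less RNA per cell.

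BAG4, a BAG protein also known to bind the tumour necrosis factor receptor, had the largest rise among linked members at 48 h. It read 6.68 to 7.03 (median 6.84) in control skin, 6.57 to 7.02 (median 6.82) at 6 h, 6.70 to 7.48 (median 7.05) at 24 h and 7.23 to 7.67 (median 7.39) at 48 h. Every 48 h array was above every control array and every 6 h array. The rise over control at 48 h was 0.56 (SE 0.08, limma adjusted p = 1.22e-05, 8 of 8 dogs), and it was 0.55 without the muscle-rich arrays and 0.45 with the actin covariate (adjusted p = 0.000821 and 0.00216). At 48 h it was also 0.34 higher than at 24 h (adjusted p = 0.0185, 8 of 8 dogs). This was the only call among linked members in that comparison, where 2.76% of linked genes rose and 0.0951% fell, and it ended when dog 1, 2, 4 or 5 was left out.

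The other BAG members with a probe set were BAG2 and BAG6. BAG2, an exchange factor that also restrains the ubiquitin ligase CHIP, read 4.72 to 5.82 (median 5.41) at 48 h, against 5.50 to 6.23 (median 5.77) in control skin. It fell by 0.39 (SE 0.13, limma adjusted p = 0.0395, 7 of 8 dogs), and the groups overlap. The call ended without the muscle-rich arrays (-0.32, adjusted p = 0.148) and without the dog as a block (adjusted p = 0.129). It ended too with the muscle covariate (-0.27, adjusted p = 0.196) and with the actin covariate (-0.30, adjusted p = 0.284). BAG6, which guards newly made membrane proteins, passed in none of the 6 comparisons, with group means of 6.42 to 6.55.

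HSPA2, an Hsp70 best known from male germ cells, was lower at 48 h. It read 9.24 to 9.98 (median 9.78) in mite skin at 48 h, against 10.03 to 10.75 (median 10.23) in control skin, and the groups do not overlap. The fall was 0.63 (SE 0.13, limma adjusted p = 0.000957, 8 of 8 dogs). It was -0.69 without the muscle-rich arrays (adjusted p = 0.00408) and -0.45 with the actin covariate, where it no longer passed (adjusted p = 0.0599). At 6 h its difference from control was -0.01 (adjusted p = 0.98). DNAJC8, a J-domain protein of pre-mRNA splicing, rose by a small step at 48 h, 0.18 (SE 0.06, adjusted p = 0.0403, 7 of 8 dogs), and lost the call without the muscle-rich arrays (0.17, adjusted p = 0.2). With 1 dog left out, DNAJC8 lost its call at 48 h without dog 1, 3, 4, 6, 7 or 8. BAG2 lost its call there without dog 2, 3, 4, 5, 6 or 7, and DNAJC7 without dog 2, 3, 4 or 6. The DNAJC7 call at 48 h also ended without the dog as a block (limma adjusted p = 0.0547). It ended too with the muscle covariate (adjusted p = 0.0589) and the actin covariate (adjusted p = 0.0854). DNAJC8 lost its call in both covariate fits as well (adjusted p = 0.0636 and 0.128).

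**Figure D2:**
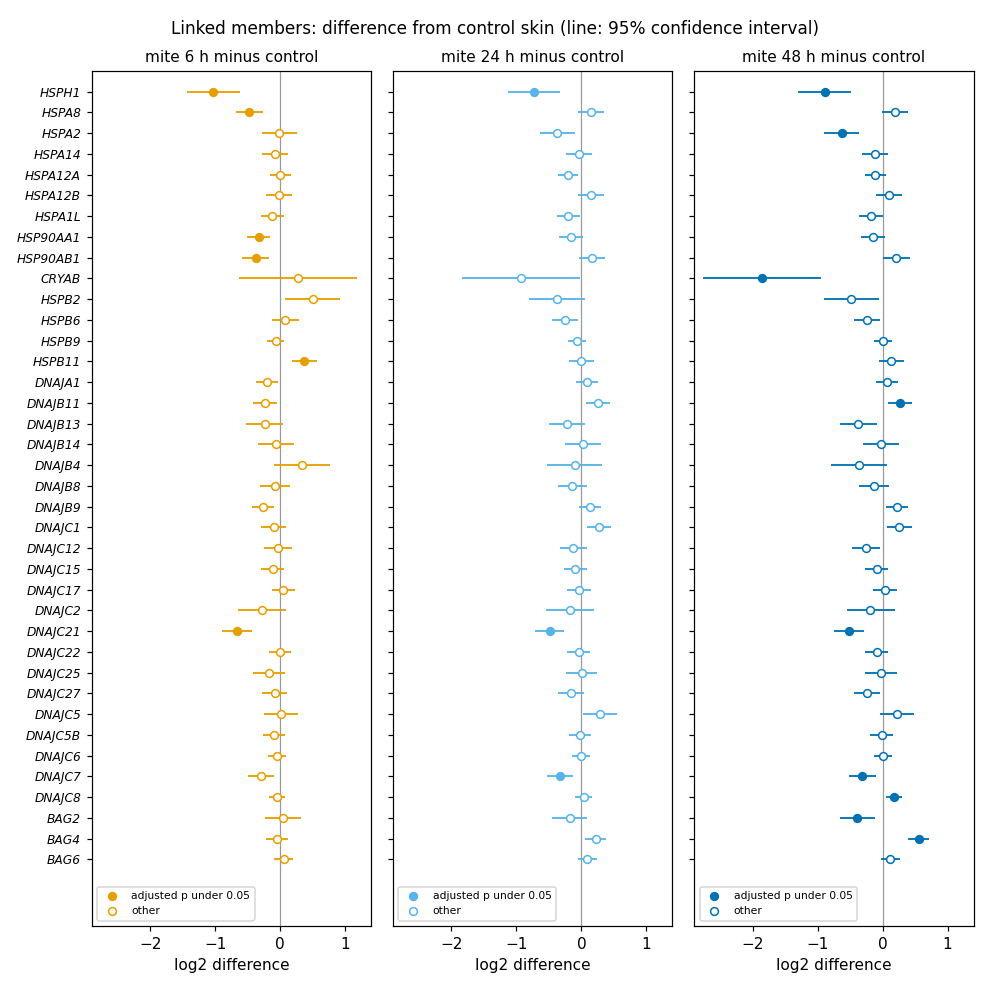
Log2 difference of each of the 38 linked members between mite skin at 6 h, 24 h and 48 h and control skin, with its 95% confidence interval; filled points have a limma adjusted p under 0.05 over all probe sets. There are 6 filled points at 6 h, 3 at 24 h and 9 at 48 h, and HSPH1 and DNAJC21 are filled at each time.

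CRYAB, alpha B-crystallin, a small heat shock protein abundant in muscle and lens, had the largest difference of any linked member. It read 7.98 to 11.25 (median 9.06) in control skin, 8.35 to 10.77 (median 9.35) at 6 h, 7.06 to 9.89 (median 7.79) at 24 h and 6.91 to 7.82 (median 7.12) at 48 h. All 48 h arrays were below all control arrays and all 6 h arrays. The fall at 48 h was 1.86 from control (SE 0.44, limma adjusted p = 0.00328) and 2.13 from 6 h (adjusted p = 0.000679), each in 8 of 8 dogs.

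CRYAB signal went with muscle signal. The 5 muscle-rich arrays of mite skin at 6 h read 9.22 to 10.77 and the remaining 3 of that group 8.35 to 8.51. The 2 muscle-rich arrays of control skin read 9.40 and 11.25 and the remaining 6 read 7.98 to 9.24. Without the muscle-rich arrays the 48 h difference from control was -1.49 (limma adjusted p = 4.8e-06). With the muscle mean as a covariate it was -0.99 (adjusted p = 0.00862). The fall passed in both fits and was smaller in each than in the fit to all arrays. The 6 control arrays kept in the first fit had muscle means of 4.08 to 6.29. Those kept at 24 h had 3.40 to 4.04 and those at 48 h 3.59 to 3.82, all lower. Muscle signal is thus not matched in that fit, and its part in the fall was not tested. The 24 h difference of -0.93 did not pass (adjusted p = 0.219), but passed without the muscle-rich arrays (-1.17, adjusted p = 0.00029). The 48 h fall against 6 h lost its call with the muscle covariate (-0.67, adjusted p = 0.138).

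HSPB2, a small heat shock protein of muscle whose gene neighbours CRYAB in the RefSeq annotation, behaved in part alike. It read 7.04 to 8.42 (median 7.37) in control skin, 7.40 to 8.89 (median 8.01) at 6 h, 6.12 to 8.14 (median 7.10) at 24 h and 6.69 to 7.49 (median 7.07) at 48 h. No comparison with control passed, the closest being 48 h (-0.48, limma adjusted p = 0.107). At 48 h it was 0.98 lower than at 6 h (adjusted p = 0.00078, 8 of 8 dogs). This was -0.53 without the muscle-rich arrays and -0.27 with the muscle covariate (adjusted p = 0.054 and 0.154). On muscle-rich arrays it was 7.96 to 8.89 at 6 h, against 7.40 to 7.77 on the others of that group.

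The cytosolic J-domain protein DNAJB4 and the muscle-associated HSPB6 also fell between 6 h and 48 h. DNAJB4 differed by -0.70 (limma adjusted p = 0.0123, 7 of 8 dogs), and by -0.13 without the muscle-rich arrays (adjusted p = 0.708). HSPB6, named after its value was seen, differed by -0.32 (adjusted p = 0.0164, 7 of 8 dogs), at signals of 3.12 to 4.15 that lie below the array medians. In the whole comparison of 48 h with 6 h 8 linked members rose and 6 fell, or 21.1% and 15.8%, where 16.1% and 12.0% of all linked genes rose and fell. Without the muscle-rich arrays 3 passed, with the muscle covariate 7 rises and 1 fall did, and with the actin covariate none did in limma (10 had p under 0.05 before adjustment). How many of all linked genes passed in those fits is not given. With 1 dog left out, DNAJB4 lost this call without dog 5 or 6, HSPB6 without dog 1 or 6, BAG2 without dog 1 or 7 and DNAJA1 without dog 1 or 3.

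**Figure D3:**
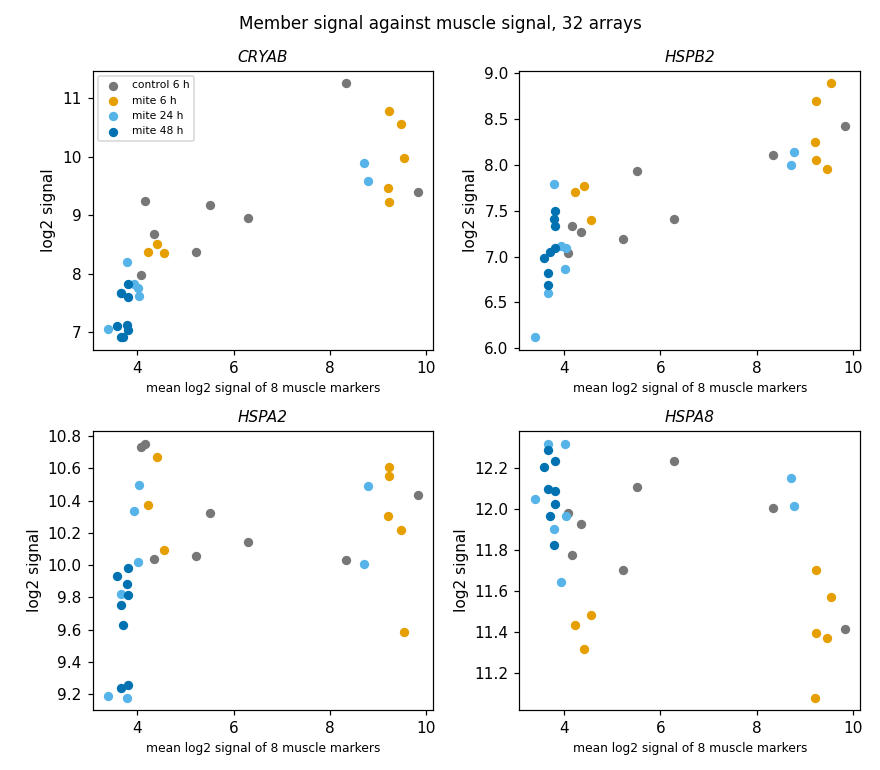
Log2 signal of CRYAB, HSPB2, HSPA2 and HSPA8 against the mean log2 signal of 8 muscle markers on the same array, coloured by group, with 1 point for each of 32 arrays. CRYAB and HSPB2 are mostly higher on the 9 arrays at 8.34 to 9.83 on the muscle axis. HSPA8 medians on muscle-rich and other arrays were 11.394 and 11.435 in mite skin at 6 h. They were 12.081 and 12.006 at 24 h, and 11.71 and 11.952 in control skin. The part of muscle in these signals was not tested.

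Markers of other cells moved along with these genes, and their part in the differences was not tested. The mean of 4 linked T cell markers was 4.72 to 6.67 in mite skin at 48 h, against 3.58 to 4.21 in control skin, and that of 4 macrophage markers 6.92 to 8.16, against 5.58 to 6.63. The mean of 4 adipocyte markers was 6.68 to 8.86 in mite skin at 48 h, against 8.92 to 10.20 in control skin. All 4 markers of each of these lists passed in limma, the first 2 lists as rises and the last as falls. The same 12 markers passed in the same directions at 48 h over 6 h. At 24 h against control 1 T cell and 1 macrophage marker rose and 4 adipocyte markers fell. Of the 5 keratinocyte markers 3 rose at 48 h over 6 h (median 0.41), at a mean of 8.91 to 9.56 at 48 h and 7.65 to 9.40 at 6 h.

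In all, 19 of the 38 linked members passed in at least 1 of the 6 comparisons, or 50%, where 40.4% of all linked genes did, and 19 passed in none. Of the 19 without a call, 11 had group means under 5 in every group, close to or below the array medians, where a missing call says little. A further limit is that 18 of the 38 probe sets carry a name ending in _s_at or _x_at, which on Affymetrix arrays marks probes shared between transcripts. HSPA8, HSP90AB1, HSPH1, HSPA2 and CRYAB are among them.

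The 34 members without a probe set extend the picture through the authors' deposited table, which comes from a model without the dog. At 6 h that table gives 0 rises and 2 falls among them, where 0.0643% and 1.4% of all its genes rose and fell. Its fold for DNAJC3, an inhibitor of the kinase PERK in the endoplasmic reticulum, was -1.9 (the authors' deposited table, adjusted p = 0.018). For DNAJC9, a J-domain protein that handles histones, it was -1.4 in the authors' deposited table (adjusted p = 0.016). A negative fold there means lower in mite skin.

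At 24 h the authors' deposited table lists 2 rises and 1 fall among the 34, where 2.85% and 4.38% of its genes rose and fell. The rises in the authors' deposited table were HSPA13, a microsomal Hsp70 (1.4, adjusted p = 0.004), and HSPA9, the mitochondrial Hsp70 mortalin (1.4, adjusted p = 0.041). The fall there was DNAJC13, an endosomal J-domain protein (-1.2, adjusted p = 0.027).

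At 48 h the authors' deposited table lists 6 rises and 4 falls among the 34, where 12.5% and 8.22% of its genes rose and fell. HSP90B1, the Hsp90 of the endoplasmic reticulum, led with 1.5 (adjusted p = 0.001), and HSPA13 was at 1.4 (adjusted p = 0.002) in the authors' deposited table. HSPA5, the Hsp70 of the same compartment known as BiP, HSPA9 and BAG1 were each at 1.3 there, and DNAJC9 at 1.2, with HSPA5, BAG1 and DNAJC9 named after their values were seen. The falls in the authors' deposited table were HSPB8, a partner of BAG3 in muscle (-2.0, adjusted p = 0.006), DNAJC13 (-1.4), DNAJA4 (-1.4, adjusted p = 0.037) and DNAJA2 (-1.3, adjusted p = 0.003).

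Several widely used markers of the heat shock response, named because they are well known, did not pass there. In the authors' deposited table HSPB1, Hsp27, was at -1.1, -1.2 and -1.1 at 6 h, 24 h and 48 h, with adjusted p of 0.628, 0.517 and 0.61. BAG3 was at -1.1, -1.2 and -1.2 in the authors' deposited table (adjusted p of 0.941, 0.651 and 0.547). DNAJB1, Hsp40, was at -1.3, -1.1 and -1.2 there (adjusted p of 0.113, 0.56 and 0.076). HSPD1, the mitochondrial chaperonin, was at -1.4, 1.1 and 1.2 in the authors' deposited table (adjusted p of 0.081, 0.55 and 0.149). HSPB7 and HSPB3, small heat shock proteins of heart and skeletal muscle, had the highest folds at 6 h there, 2.3 and 1.8 (adjusted p = 0.563 and 0.408), and were named after their values were seen.

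**Figure D4:**
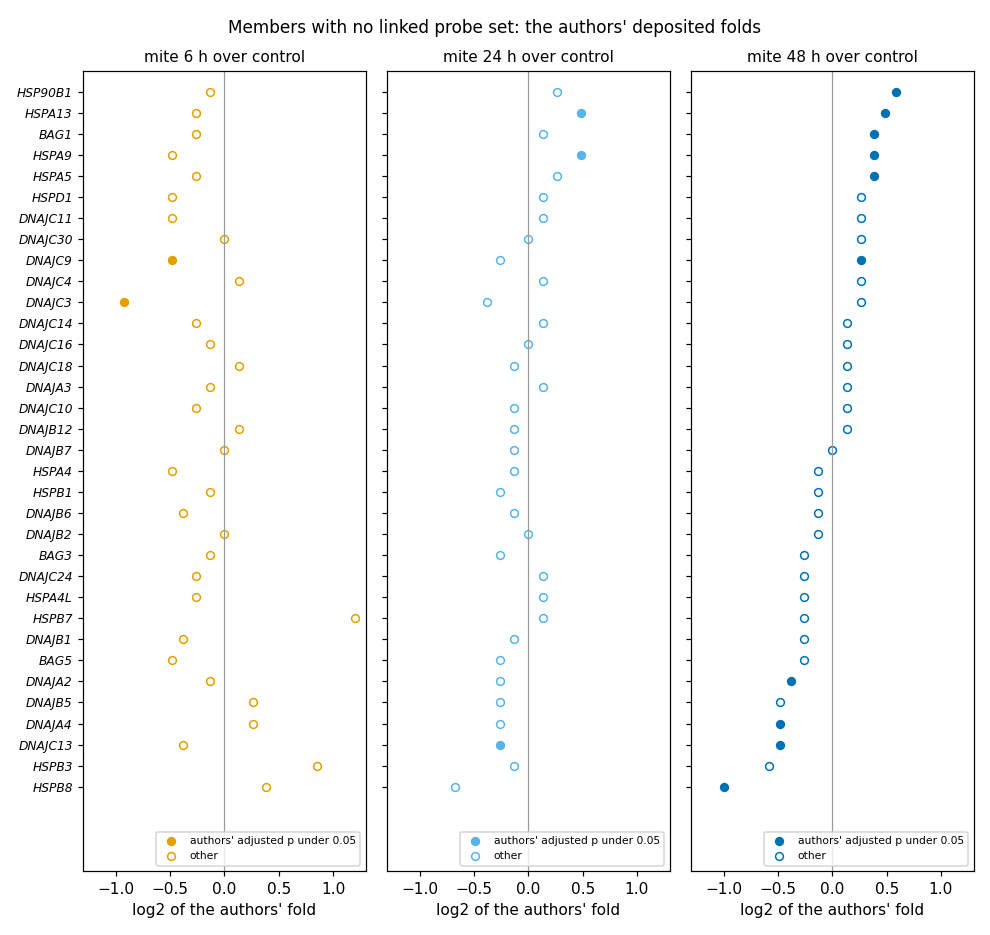
The authors' deposited folds of the 34 members with no linked probe set, as log2 of the fold, for mite skin at 6 h, 24 h and 48 h over control skin; filled points have an adjusted p under 0.05 in that table, and the folds are rounded to 1 decimal. There are 2 filled points at 6 h, 3 at 24 h and 10 at 48 h.

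Partner genes outside the 72 were read from lists of other chaperones and their regulators, 67 genes of which 24 were linked. At 6 h 3 of the 24 fell and 0 rose in limma (10 had p under 0.05 before adjustment), or 12.5% and 0.0%, where 4.08% and 0.323% of all linked genes fell and rose. CHORDC1, an Hsp90 co-chaperone, fell by 0.45 (limma adjusted p = 0.0437) and PTGES3, the Hsp90 co-chaperone p23, by 0.39 (adjusted p = 0.0489). CCT8, a subunit of the cytosolic chaperonin, fell by 0.32 (adjusted p = 0.0124). No fit for muscle, actin or single dogs is given for these 3. None of the linked members kept its 6 h call without the muscle-rich arrays or with the actin covariate. All 3 were higher at 24 h than at 6 h in limma. The differences were 0.58 for CHORDC1 (adjusted p = 0.00204), 0.52 for PTGES3 (adjusted p = 0.00181) and 0.58 for CCT8 (adjusted p = 1.3e-05). For CCT8 the 24 h and 6 h groups do not overlap. Genes picked as low on the 6 h mite arrays tend to look higher in this test, which uses those same arrays. Of the 24, 5 rose and 2 fell at 24 h over 6 h, or 20.8% and 8.33%. Among all linked genes 8.43% rose and 8.17% fell there.

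Against control, CCT8 was higher at 24 h (0.26, limma adjusted p = 0.0148) and at 48 h (0.24, adjusted p = 0.0128), each in 7 of 8 dogs. It was the single call among the 24 at 24 h, a share of 4.17%, where 3.63% of all linked genes rose. At 48 h 5 of the 24 rose and 1 fell, or 20.8% and 4.17%, where 12.2% and 10.9% of all linked genes rose and fell. HYOU1, a large Hsp70 relative of the endoplasmic reticulum, rose by 0.42 (adjusted p = 0.00955, 8 of 8 dogs), at a signal of 4.17 in mite skin against 3.75 in control skin, below the array medians. The mitochondrial protease HTRA2 rose by 0.34 (adjusted p = 0.0111, 8 of 8 dogs) and SUGT1, an Hsp90 co-chaperone, by 0.26 (adjusted p = 0.0432, 7 of 8 dogs).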

How the data were processed

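Total RNA of 32 skin biopsies was labelled with biotin and read on arrays, per the labels' protocols. The authors deposited log2 signals, and no source used here gives their summary, their normalization or a genome build. A second file of the authors holds, for each gene and time, a p-value after adjustment and a fold. That deposited fold is a signed linear score from the authors, negative where mite skin was lower.

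Genes were tied to probe sets where an ordinary linear model without the dog gave 3 folds within 0.05 and 3 p-values within 0.001 of exactly 1 gene. This tied 10512 genes (61.4%). With the 24 h and 48 h values of a gene moved together to another gene, 32.6 were tied on average over 5 shuffles. About 0.07 wrong ties are expected among the 38 members.

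limma 3.58.1 in R 4.3.3 fitted 4 groups with the dog as a fixed block to all 32 arrays. After removal of 175 array controls, 42860 probe sets were tested, with Benjamini-Hochberg adjustment and 21 residual degrees of freedom. Arrays were paired by the dog that the labels give. Deviations from group means correlated by 0.16 on average over 48 pairs of arrays of 1 dog (-0.46 to 0.70, 33 above 0.1).

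Up to 6 rises and 6 falls against control, and 4 and 4 between times, were named among calls with 1 sign in at least 7 dogs, plus well-known members. For members without a probe set up to 3 and 3 were named. For other chaperones up to 4 per comparison were named. The members, lists and rules were chosen with earlier results of these data known. RefSeq names (UU_Cfam_GSD_1.0) matched 70 of the 72 symbols. Alternatives, counted for linked members only, covered the block, normalization, dim probe sets, array weights, muscle, actin and each dog.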

Additional observations from a re-analysis of the deposited data

Results flagged for a closer look

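In 4 of 76 sets of 8 arrays examined among the named members, 1 array lay far from the other 7, and chance alone flags about 1 in 20 sets. In control skin dog 7 was highest for CRYAB, at 11.25 with the next dog at 9.40, and for DNAJB4, at 8.31 with the next at 7.16. Dog 4 was lowest in control skin for HSPH1, at 5.62 with the next at 6.15. Dogs 4 and 7 gave the 2 muscle-rich control arrays, and whether muscle plays a part in their flags was not tested. Dog 6 was lowest at 48 h for DNAJC7, at 8.10 with the next at 8.42.

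For 13 members the difference from control had opposite signs at 6 h and at a later time, and the test between those times passed in limma. The share of all linked genes that do so was not counted, so this does not set the members apart. No member passed against control in both directions. Of the 13 only HSPA8 and HSP90AB1 passed against control at 6 h, and neither passed later. Some 6 h differences were small, as for BAG2 (0.04), BAG4 (-0.05) and DNAJC8 (-0.05), with limma adjusted p of 0.924, 0.824 and 0.782. Higher at 24 h than at 6 h were HSPA8 (0.62), HSP90AB1 (0.54), DNAJB11 (0.49), DNAJB9 (0.39), DNAJC1 (0.37), DNAJA1 (0.29) and BAG4 (0.27). Higher at 48 h than at 6 h were HSPA8 (0.67), BAG4 (0.61), HSP90AB1 (0.59), DNAJB11 (0.51), DNAJB9 (0.48), DNAJC1 (0.35), DNAJA1 (0.28) and DNAJC8 (0.22). Lower at 24 h than at 6 h were HSPB2 (-0.88) and HSPB6 (-0.34). Lower at 48 h than at 6 h were CRYAB (-2.13), HSPB2 (-0.98), DNAJB4 (-0.70), BAG2 (-0.43) and HSPB6 (-0.32).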

How the results depend on the processing

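Over 65 differences, the named ones and all other calls among linked members, and 18 alternatives, 956 values kept direction and side of the threshold, 175 lost the call, 9 gained it and 26 changed sign. Of the 175, 69 came with 1 dog left out, 36 with the actin covariate, 31 without the muscle-rich arrays and 16 with the muscle covariate, and the cause was not tested. Counts of linked members called at 6 h against control, 6 in the main model, were 3 with no replicate block, 3 with the muscle covariate, 0 without the muscle-rich arrays, 0 with actin and 2 to 6 with 1 dog left out. At 24 h the main count of 3 became 5 with quantile normalization, median centring, no muscle-rich arrays or array weights, and 1 to 5 with 1 dog left out. At 48 h 9 became 4 with actin. For 24 h against 6 h, 10 became 0 without the muscle-rich arrays and 0 with actin. For 48 h against 24 h, 1 became 0 with no replicate block, with only the 2 groups, without the muscle-rich arrays and with actin, and was 0 to 1 with 1 dog left out. For 48 h against 6 h, 14 became 3 without the muscle-rich arrays, 8 with the muscle covariate and 0 with actin. The share of all linked genes called in each alternative is not given, so these changes do not set the members apart.

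Sign changes were all in differences without a call. CRYAB at 6 h against control was -0.47 without the muscle-rich arrays, -0.32 with the muscle covariate and -0.004 to 0.72 with 1 dog left out. DNAJA1 at 24 h against control was -0.027 without the muscle-rich arrays, and HSP90AB1 at 48 h -0.013 with actin. HSPH1 with actin was -0.21 at 24 h and -0.58 at 48 h against 6 h, and its 48 h difference from 6 h was -0.065 to 0.255 with 1 dog left out. At 48 h against 24 h HSPA8 was -0.021 with quantile normalization and -0.001 to 0.085 with 1 dog left out. HSP90AA1 there was -0.062 with quantile normalization, -0.012 with median centring, -0.011 with the muscle covariate, -0.001 with actin, -0.047 with array weights, -0.055 without the 24 h array of dog 5, an alternative chosen after seeing the data, and -0.058 to 0.062 with 1 dog left out. HSP90AB1 was -0.002 without the muscle-rich arrays and -0.083 with actin. DNAJA1 was 0.035 without the muscle-rich arrays, 0.004 with actin and -0.074 to 0.033 with 1 dog left out.

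Halving the p tolerance of the gene link, also chosen after seeing the data, left 33 members. A link at a much tighter tolerance tied 0 members, because the deposited folds are rounded to 1 decimal, and gave no value.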
